A study of Mus musculus with 34 samples.

Results

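The DNA-binding protein CTCF was set against RNA polymerase II phosphorylated at serine 2 (Pol2S2P) in C2C12 cells, an immortal mouse myoblast line. The libraries were chosen by their labels: 3 CTCF libraries from a dual staining for H3K4me3 and CTCF, and 3 Pol2S2P libraries from a dual staining for H3K27ac and Pol2S2P, each from 1000 cells. These are 6 of the 28 libraries with a column in the deposited table, out of 34 samples in the labels. Each was made by multi-target chromatin integration labelling (mtChIL-seq), in which a DNA probe carried to the antibody is inserted into nearby chromatin by Tn5 transposase, transcribed into RNA and sequenced. CTCF was detected with a rabbit monoclonal antibody and Pol2S2P with the mouse monoclonal CMA602. No genotype or treatment separates the groups: target, antibody, partner antibody and staining differ together and cannot be told apart. Other libraries of the same targets in the same line, which do not enter the comparison and of which the dual ones have the same antibody pairs, are given beside them: CTCF in a single staining of 10000 cells (n = 2), CTCF in the dual staining of 10000 cells (n = 3), Pol2S2P in a single staining of 1000 cells (n = 2) and Pol2S2P in the dual staining of 100 cells (n = 3). The labels name replicates but do not tell whether they were separate cultures, so p-values cover library-to-library spread, possibly all technical.

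CTCF is a zinc-finger protein that binds a long, conserved DNA motif and, with the cohesin ring, holds the bases of chromatin loops and insulates neighbouring regions. Serine 2 of the polymerase's C-terminal repeats is phosphorylated by kinases such as Cdk9 and Cdk12 once the enzyme has left the promoter, so the mark lies over transcribed gene bodies and past their ends. The comparison therefore sets a protein that sits at points against a state of an enzyme that travels along genes.

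The CTCF libraries held 2074331 to 3262830 counts and the Pol2S2P libraries 3159793 to 3645778, after 9 bins of extreme density were left out. Over the 12929 gene interiors tested, log-scaled counts correlated at r = 0.958 to 0.969 between CTCF libraries, at 0.973 to 0.975 between Pol2S2P libraries and at 0.826 to 0.854 across the targets, a description over genes that share library and depth. Densities below are counts per 1 kb bin relative to the mean bin of the same library, called times the genome mean. The 6 markers of the myoblast line (Myod1, Myf5, Des, Cdh15, Itga7 and Vim) summed to 3.13 to 3.38 times the genome mean over their gene bodies in CTCF and to 5.24 to 5.97 times in Pol2S2P, while 34 neuronal genes lay at 0.550 to 0.569 times in CTCF and 0.443 to 0.466 times in Pol2S2P. Of 23 blood and immune genes none was at 0 in either group, and their summed body level was 1.27 to 1.34 times in CTCF and 1.51 to 1.55 times in Pol2S2P. It was 1.29 to 1.41 and 0.868 to 0.896 times for 22 liver and gut genes. For 26 transcription factors of other lineages it was 1.26 to 1.34 and 1.38 to 1.43 times, and for 1463 olfactory and vomeronasal receptors 0.412 to 0.431 and 0.392 to 0.395 times. Sums hide single members: Vim had the highest Pol2S2P density of any interior, and the window of Myod1 was higher in CTCF (below).

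Pol2S2P counts lay more often inside genes and CTCF counts more often between them. Gene interiors (protein-coding genes of at least 5 kb, trimmed by 2 kb at each end) make up 35.7% of the genome. They held 42.0%, 42.1% and 42.1% of the counts in the CTCF libraries, against 49.2%, 49.7% and 49.6% in the Pol2S2P libraries. The means were 42.1% ± 0.0182 for CTCF and 49.5% ± 0.282 for Pol2S2P (SD, n = 3 each). Intergenic bins, over 2 kb outside every annotated gene, make up 47.3% of the genome and held 34.2% ± 0.261 of CTCF counts and 29.2% ± 0.344 of Pol2S2P counts. In both regions the groups did not overlap, and the exact permutation test gave its smallest possible p for 3 against 3, 0.1 (two-sided). Both targets took more than the region's share of bins inside genes and less between them, and Pol2S2P was farther from it in each. The other libraries of each target gave 41.9% and 41.6% inside genes for CTCF (single and dual at 10000 cells) and 51.6% and 49.2% for Pol2S2P (single at 1000 cells and dual at 100 cells).

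CTCF was the more focal of the targets. The 1% of bins with most counts in the single CTCF staining held 13.5% ± 0.316 of the counts of the CTCF libraries and 3.99% ± 0.116 of those of Pol2S2P (SD, n = 3 each). The 1% of bins highest in the single Pol2S2P staining held 6.81% ± 0.271 of CTCF counts and 7.27% ± 0.267 of Pol2S2P counts, and here the groups overlapped (exact permutation p = 0.2). With every library thinned to 2074331 counts, the top 1% of its own bins took 15.3% ± 0.437 of counts in CTCF, against 10.7% ± 0.283 in Pol2S2P. The single stainings were close to each other, without thinning. The 1% of bins highest in single CTCF held 15.2% of its own counts, and the 1% highest in single Pol2S2P held 14.7% of its own. Gene starts held 6.48% ± 0.242 of CTCF counts and 4.68% ± 0.0757 of Pol2S2P counts. They are the bins within 1 kb of the annotated start, or, for 3809 genes without a strand, of the end with more H3K4me3. In the single stainings the order at gene starts was the other way round, at 6.96% for CTCF and 8.41% for Pol2S2P.

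**Figure D1:**
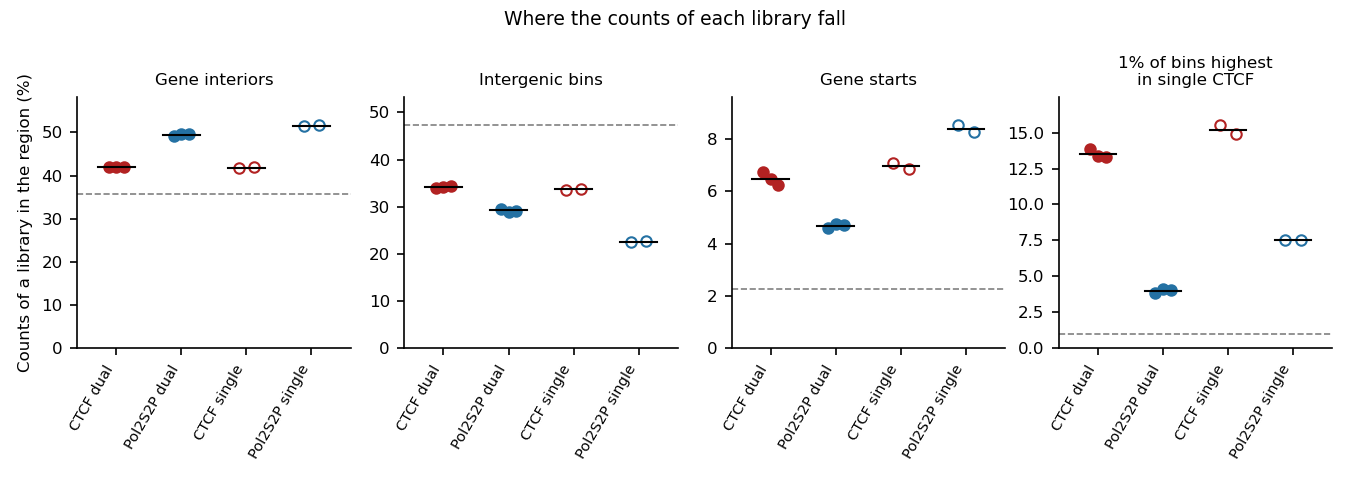
Share of each library's counts, in percent, that falls in gene interiors, intergenic bins, gene starts and the 1% of bins highest in the single CTCF staining. Points are libraries (filled: dual staining at 1000 cells; open: single stainings), bars are group means and the dashed line is the region's share of all bins. The 3 CTCF dual libraries lie near 42.1% in gene interiors and the 3 Pol2S2P dual libraries near 49.5%.

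Gene interiors answered which genes carry one target in excess. Of 12929 interiors with enough counts, 8253 (63.8%) passed the edgeR test: 2985 (23.1%) were higher in CTCF and 5268 (40.7%) were higher in Pol2S2P, with a median log2 fold change, CTCF over Pol2S2P, of -0.23. With TMM scaling, which sets that median to about 0, the split was 4030 higher in CTCF and 4035 higher in Pol2S2P, and DESeq2 gave 3496 and 3303. Scaling therefore moved values by about 0.23 on the log2 scale, so the direction of an interior near the median depends on it. Calls are given without scaling unless stated, and which scaling suits unlike targets was not tested. In the single stainings, 9792 (71.6%) of 13681 interiors passed, 3727 (27.2%) higher in CTCF and 6065 (44.3%) higher in Pol2S2P. Among 12865 interiors tested in both, 2545 were higher in CTCF in both, which is 85.3% of the dual and 70.6% of the single calls, and 4763 were higher in Pol2S2P in both, which is 90.6% of the dual and 82.5% of the single calls.

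The interiors with the largest CTCF excess were short, 1 to 10 bins, and several belonged to genes of other tissues. Cstl1 (chr2:148750361-148755434, GRCm38), which encodes a cystatin-like protein, had 23, 32 and 31 counts in the CTCF libraries, against 3, 0 and 2 in the Pol2S2P libraries, all in a single interior bin. Its density was 27.2 times the genome mean in CTCF and 1.25 times in Pol2S2P (log2 fold change 4.28 ± 0.50 SE, edgeR adjusted p = 8.5e-17). Rbp3, the retinoid-binding protein of the photoreceptor matrix, had 26, 35 and 28 counts in CTCF, against 5, 4 and 0 in Pol2S2P. Acod1, the itaconate-producing enzyme of activated macrophages, had 32, 44 and 32 counts in CTCF, against 3, 6 and 2 in Pol2S2P. Groups without overlap and at least 20 counts in every CTCF library were conditions for naming these genes, and not results. Myct1, Serpina11, Trp53i11, Mepe (a bone matrix protein), Cryba2 (a lens crystallin) and Igfbp3 (an insulin-like growth factor carrier) followed, with log2 fold changes of 3.06 to 3.47. A single bin held 24.3% to 100% of the CTCF counts of these interiors.

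The interiors with the largest Pol2S2P excess ran up to 69 bins and belonged to genes of varied roles. Npm1 (chr11:33152498-33164142), the nucleolar protein nucleophosmin, had 15, 15 and 11 counts in CTCF, against 205, 191 and 182 in Pol2S2P, or 1.93 and 21.5 times the genome mean (log2 fold change -3.53 ± 0.20, adjusted p = 2.3e-69). Map3k12, a kinase upstream of the JNK pathway, had 17, 30 and 31 counts in CTCF, against 329, 306 and 318 in Pol2S2P (-3.34 ± 0.15, adjusted p = 9e-107). Nid1, the basement membrane protein nidogen, had 57, 70 and 51 counts in CTCF, against 510, 473 and 454 in Pol2S2P over 69 bins (-2.73 ± 0.11). The top bin held 6.18% of the CTCF counts and 2.92% of the Pol2S2P counts of Nid1. Trim41, Gba2, Pa2g4, Samd11, Tbr1 and Taf9b followed, with log2 fold changes of -2.98 to -2.64. Tbr1, a transcription factor of cortical neurons, had 1, 5 and 3 counts in CTCF, against 20, 29 and 23 in Pol2S2P.

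**Figure D2:**
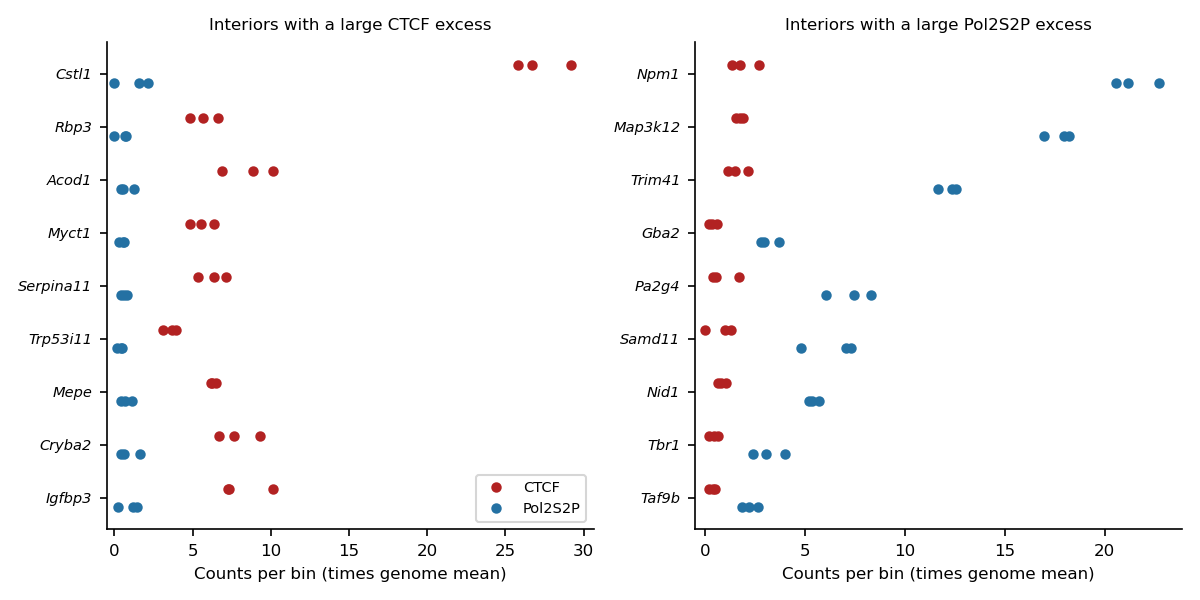
Density in each of the 3 CTCF and 3 Pol2S2P libraries (points), as counts per bin relative to the genome mean, for the gene interiors named above with the largest excess of each target. Cstl1 averaged 27.2 times in CTCF and 1.25 times in Pol2S2P, and Npm1 1.93 times in CTCF and 21.5 times in Pol2S2P. The genes were chosen to have groups without overlap.

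Genes of protein synthesis stood on the Pol2S2P side. Of the 10 interiors tested in a list of ribosomal proteins, initiation factors and nucleolar proteins, 0 were higher in CTCF and 9 were higher in Pol2S2P, beside 23.1% and 40.7% over all interiors, with a median log2 fold change of -2.07 beside -0.23 over all. Ncl, the nucleolar protein nucleolin, had 17, 23 and 18 counts in CTCF, against 181, 154 and 180 in Pol2S2P (-2.87 ± 0.19). The translation initiation factors Eif3a, Eif4g2 and Eif4g1 had log2 fold changes of -2.74, -2.55 and -2.24, and Nop58, a core protein of the snoRNA particles, -1.90. The ribosomal protein genes Rpl5 and Rps24 had -1.82 and -1.58, and Fbl, the rRNA methyltransferase fibrillarin, -1.28. Rpl19 was the member that did not pass, with 9, 22 and 21 counts in CTCF and 29, 23 and 24 in Pol2S2P (-0.28 ± 0.31, adjusted p = 0.44). Over whole gene bodies, which also take in short ribosomal protein genes, 0 of 21 members were higher in CTCF (25.9% over all 16446 bodies tested) and all 21 were higher in Pol2S2P (33.5% over all).

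Splicing and mRNA processing genes gave 0 interiors higher in CTCF and 21 higher in Pol2S2P of 22 tested (median -1.76), shares of 0% and 95.5% beside 23.1% and 40.7% over all interiors. Hnrnpu, an RNA-binding protein of the nuclear matrix, had 44, 49 and 48 counts in CTCF, against 299, 308 and 335 in Pol2S2P (-2.46 ± 0.13). Hnrnpa2b1, Son and Srsf3, which bind pre-mRNA or organise splicing factors, had log2 fold changes of -2.55, -2.28 and -2.14. The member outside the threshold was Tra2a, a splicing activator, at 0.04; it was named after its value was seen, as were the members below that are counted against their list's main direction.

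Genes of the elongation machinery were mostly on the Pol2S2P side. Of 26 elongation genes tested, 2 were higher in CTCF and 22 were higher in Pol2S2P (median -1.14). These are shares of 7.69% and 84.6%, beside 23.1% and 40.7% over all interiors. Xrn2, the exonuclease that ends transcription behind the polymerase, had 48, 81 and 90 counts in CTCF, against 305, 359 and 284 in Pol2S2P (-1.85 ± 0.12). Nelfa, a subunit of the pausing factor NELF, and the elongation factors Supt6 and Iws1 had -1.78, -1.62 and -1.40. Polr2a, the largest polymerase subunit, had 38, 48 and 46 counts in CTCF, against 144, 122 and 117 in Pol2S2P (-1.26 ± 0.17), and the serine 2 kinase gene Cdk12 had 169, 237 and 225 counts in CTCF, against 491, 508 and 481 in Pol2S2P (-0.96 ± 0.08). The members higher in CTCF were Cdk9, the other kinase, at 1.37, and Larp7, which keeps that kinase inactive, at 0.85. Without bins that lie in another gene, Larp7 no longer passed (0.65, adjusted p = 0.073).

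The genes of CTCF and cohesin likewise carried more Pol2S2P than CTCF: 1 interior was higher in CTCF and 13 were higher in Pol2S2P of 14 tested (median -1.12), which is 7.14% and 92.9% where all interiors gave 23.1% and 40.7%. Ctcf had 56, 104 and 73 counts in CTCF, against 217, 186 and 263 in Pol2S2P, or 1.73 and 4.12 times the genome mean (-1.24 ± 0.13, adjusted p = 3.4e-21). Rad21, the cohesin subunit that closes the ring, had 46, 57 and 60 counts in CTCF, against 177, 167 and 170 in Pol2S2P (-1.38 ± 0.15). The ring subunit Smc1a, the cohesin regulator Pds5a and the loading factor Mau2 had -1.83, -1.77 and -1.54, and the deacetylase gene Hdac8 was the member higher in CTCF, at 0.21. Over its whole body Hdac8 no longer passed (0.20, adjusted p = 0.056).

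Matrix, cytoskeleton and cell cycle genes also lay mostly on the Pol2S2P side. In the matrix and cytoskeleton list 1 interior was higher in CTCF and 24 were higher in Pol2S2P of 28 tested (median -1.26), or 3.57% and 85.7%, with 23.1% and 40.7% over all interiors. Vim, the intermediate filament protein of mesenchymal cells, had 12, 25 and 16 counts in CTCF, against 110, 131 and 114 in Pol2S2P, where its density of 31.0 times the genome mean was the highest of any interior (-2.47 ± 0.21). The filamin gene Flna and the fibronectin gene Fn1 had -2.17 and -2.07, while the collagen gene Col1a1 was higher in CTCF, at 1.63. Among 23 cell cycle genes, 2 were higher in CTCF and 17 were higher in Pol2S2P (median -1.10), or 8.70% and 73.9%. These shares lie near the 4.95% and 72.7% of all interiors whose gene starts carry most H3K4me3, described below. The mitotic kinase Aurka, the ribonucleotide reductase subunit Rrm1, the proliferation marker Mki67 and the G1 kinase Cdk6 had -1.82, -1.75, -1.71 and -1.68. Ccnd2, a G1 cyclin, and Mcm2, a subunit of the replicative helicase, were higher in CTCF, at 1.37 and 0.99, but Mcm2 stood at 0.11 over the bins more than 5 kb inside its ends (adjusted p = 0.85).

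Of 24 interiors of the contractile apparatus, 15 were higher in CTCF and 1 was higher in Pol2S2P (median 0.63), or 62.5% and 4.17% beside 23.1% and 40.7% over all interiors. Myh3, the embryonic myosin heavy chain, had 62, 116 and 96 counts in CTCF, against 19, 24 and 30 in Pol2S2P, or 4.47 and 1.01 times the genome mean (2.17 ± 0.21, adjusted p = 2.9e-24). The troponin genes Tnni1 and Tnnt1 and the myosin light chain gene Myl1 had 1.55, 1.44 and 1.38, and Tpm2, a tropomyosin gene, was the member higher in Pol2S2P, at -1.05, though its call was lost with TMM (adjusted p = 0.0857) and DESeq2 (adjusted p = 0.21). Myogenic regulators gave 3 higher in CTCF and 7 higher in Pol2S2P of 15 tested, shares of 20% and 46.7% that lie near those over all interiors. Their median of -0.19 became 0.04 with either TMM or DESeq2 scaling. Tead1, Tead4 and Mef2a, transcription factors that act with the myogenic factors, had -1.10, -0.94 and -0.90, whereas Mef2c, the muscle stem cell factor Pax7 and Eya2 were higher in CTCF, at 0.90, 0.72 and 0.30. Myod1, Myf5 and Myog are too short to have an interior.

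Signalling genes of myoblasts gave 2 higher in CTCF and 13 higher in Pol2S2P of 27 tested (median -0.21, and 0.01 with TMM). The shares were 7.41% and 48.1%, beside 23.1% and 40.7% over all interiors, and the median was close to the -0.23 of all genes. The hyaluronan receptor gene Cd44 had 137, 198 and 212 counts in CTCF, against 829, 705 and 774 in Pol2S2P (-1.80 ± 0.08), and Yap1, the Hippo pathway coactivator, had -1.06. Igfbp5, an insulin-like growth factor carrier of muscle, had 48, 56 and 63 counts in CTCF, against 24, 13 and 15 in Pol2S2P (1.96 ± 0.25), and the growth factor receptor gene Pdgfra had 1.46. Immediate early and serum response genes gave 3 higher in CTCF and 5 higher in Pol2S2P of 10 tested (median -0.27, and -0.05 with TMM), shares of 30% and 50% near those over all interiors. Over whole bodies, where all 26 members were tested, 6 were higher in CTCF and 7 were higher in Pol2S2P, with a median of 0.20. That is 23.1% and 26.9%, beside 25.9% and 33.5% over all bodies. The chromatin protein gene Hmga2, which shares 42 of its 110 bins with other genes, had 218, 311 and 318 counts in CTCF, against 1615, 1445 and 1483 in Pol2S2P (-2.15 ± 0.06). The AP-1 subunit genes Fosl1 and Fosl2, and Klf6, were lower in CTCF as well, at -1.60, -0.83 and -1.23. Egr2, a zinc-finger factor of early responses, had 25, 46 and 35 counts in CTCF, against 23, 8 and 13 in Pol2S2P (1.53 ± 0.30), but -0.14 in the single stainings. Srf and Klf10 passed at 0.76 and 0.53, and Atf3 and Nr4a1 did not, at 0.35 and 0.28. With the 1% of bins highest in the single CTCF staining left out, a setting chosen after the data were seen, Klf10 was lower in CTCF, at -0.64 (adjusted p = 0.043).

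**Figure D3:**
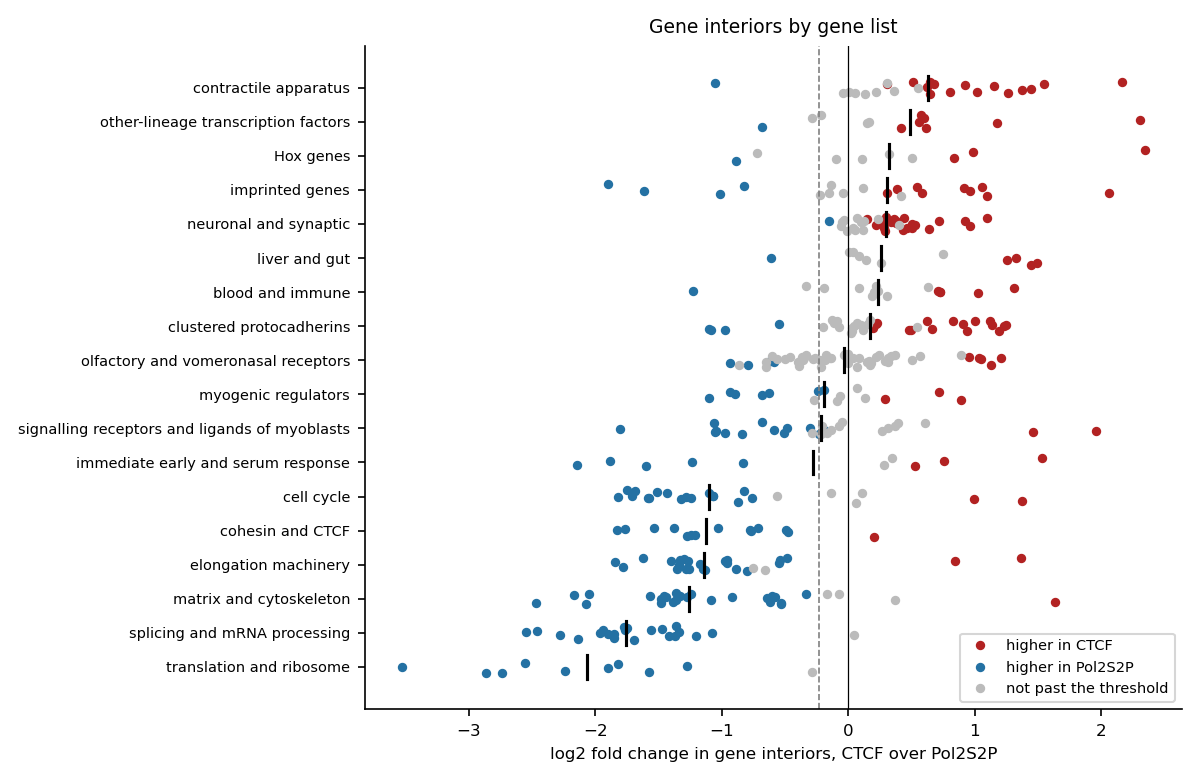
Log2 fold change, CTCF over Pol2S2P, of every gene interior tested in 18 gene lists. Each point is a gene, coloured by the edgeR call at an adjusted p of 0.05; black bars are list medians and the dashed line is the median of all 12929 interiors, -0.23. Medians run from -2.07 for translation to 0.63 for the contractile apparatus.

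Lists of genes from other lineages had medians above 0, toward CTCF, except for the olfactory and vomeronasal receptors. All interiors gave 23.1% higher in CTCF and 40.7% higher in Pol2S2P, and the lists of this paragraph 9.26% to 61.8% and 2.94% to 9.09%. Of 34 neuronal and synaptic genes, 21 were higher in CTCF (median 0.30), and Shank2 was higher in Pol2S2P at -0.15, but not under TMM or DESeq2 (0.08 in each). The list had a median density of 0.594 times the genome mean in CTCF and 0.444 times in Pol2S2P. Rbfox3, a neuronal splicing factor, had 541, 767 and 678 counts in CTCF, against 437, 323 and 366 in Pol2S2P (1.10 ± 0.07). The synaptic scaffold gene Shank1, the GABA-synthesising enzyme gene Gad1 and the glutamate receptor gene Grin2b had 0.96, 0.93 and 0.72. Among 15 blood and immune genes 5 were higher in CTCF, Itga4 at 1.31, Ikzf1 at 1.03, Prkcb and Spi1 at 0.73 and Ptprc at 0.71, and 1 was higher in Pol2S2P: Runx1, with 378, 553 and 588 counts in CTCF, against 1484, 1339 and 1469 in Pol2S2P (-1.23 ± 0.06). Liver and gut genes gave 4 higher in CTCF, namely Cps1, Afp (1.45), Hnf4a (1.33) and Apob (1.25), and 1 higher in Pol2S2P, Vil1 (-0.61), of 11 tested, whose call was lost with TMM (adjusted p = 0.20). Transcription factors of other lineages gave 7 higher in CTCF, among them Onecut1 at 2.31, Nkx2-5 at 1.17 and Pax5 at 0.61, and 1 higher in Pol2S2P, Ebf1 at -0.68, of 12 tested. Olfactory and vomeronasal receptors, mostly silent outside sensory neurons, gave 5 higher in CTCF and 4 higher in Pol2S2P of 54 tested. Their median was -0.03, and 0.19 with TMM. The members with the largest difference were Vmn2r117, Olfr687, Vmn2r106 and Vmn2r13, higher in CTCF at 1.21, 1.13, 1.05 and 1.03. Olfr1393 stood at 0.96, and Vmn2r83, Vmn2r79, Vmn2r90 and Vmn2r82 were higher in Pol2S2P at -0.94, -0.79, -0.64 and -0.59; these 4 lost their calls with DESeq2, and TMM gave 9 higher in CTCF and 1 higher in Pol2S2P. These receptors have many near-identical copies, among which reads can be split.

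Loci known for CTCF-dependent insulation were mixed. Of 19 imprinted genes, 9 were higher in CTCF and 4 were higher in Pol2S2P (median 0.31), or 47.4% and 21.1% beside 23.1% and 40.7% over all interiors. Zim1 had 13, 36 and 22 counts in CTCF, against 12, 7 and 1 in Pol2S2P (2.07 ± 0.39), and Grb10, an adaptor of growth factor receptors, had 205, 288 and 290 counts in CTCF, against 166, 116 and 160 in Pol2S2P (1.10 ± 0.11). Ube3a, a ubiquitin ligase gene that shares 37 of its 78 bins with other genes, had 44, 92 and 76 counts in CTCF, against 326, 331 and 295 in Pol2S2P (-1.90 ± 0.12). Impact, Mest and Copg2 were higher in Pol2S2P as well, at -1.61, -1.01 and -0.82, though Mest lost its call with TMM (adjusted p = 0.066) and DESeq2 (adjusted p = 0.17). Igf2 had 3, 11 and 4 counts in CTCF and 5, 1 and 5 in Pol2S2P, too few to be tested.

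Of 9 Hox interiors tested, 3 were higher in CTCF and 1 was higher in Pol2S2P, which is 33.3% and 11.1% where all interiors gave 23.1% and 40.7%. Hoxd3 had 56, 82 and 65 counts in CTCF, against 15, 17 and 16 in Pol2S2P (2.35 ± 0.24), and 48.8% of its CTCF counts lay in a single bin. Hoxc9 and Hoxc6 had 0.99 and 0.84, and Hoxa3, which shares 31 of its 39 bins, had -0.89. Hoxa10, Hoxb6, Hoxb3, Hoxc4 and Hoxc13 did not pass, at 0.51, 0.32, 0.11, -0.10 and -0.72. The clustered protocadherins gave 16 higher in CTCF (45.7%) and 4 higher in Pol2S2P (11.4%) of 35 tested (Pcdhga12, Pcdhgc3, Pcdhgc4 and Pcdhgc5 at -0.55, -1.09, -1.10 and -0.98), but these genes overlap: Pcdha1, Pcdha2, Pcdha3 and Pcdha4, at 1.25, 1.23, 1.19 and 1.14, share nearly all of their bins and are not separate measurements.

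Calls in interiors went with H3K4me3, the promoter mark, at the start of the gene. Genes with a known strand were divided into 3 classes by H3K4me3 counts at their start in the dual libraries of 10000 cells, which are outside the comparison. Among 3939 interiors with at least 87 such counts, 4.95% were higher in CTCF and 72.7% were higher in Pol2S2P, with a median log2 fold change of -0.80. Among 2947 interiors with at most 6, 44.4% were higher in CTCF and 8.35% were higher in Pol2S2P, with a median of 0.33. Whether the gene lists above differ from other genes of the same class was not tested. The shares also differed with gene length. Of 471 interiors of genes of 5 to 10 kb, 21.9% were higher in CTCF and 39.3% were higher in Pol2S2P. Of 2828 interiors of genes of 10 to 20 kb, 16.1% were higher in CTCF and 39.4% were higher in Pol2S2P, and of 227 of at least 500 kb, 59.5% were higher in CTCF and 13.7% were higher in Pol2S2P. Longer genes hold more counts, and how far that sets these shares was not tested.

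Along genes of at least 30 kb with a known strand, the targets differed in shape. In the 1984 genes with most H3K4me3 at their start, the CTCF density was 4.54 ± 0.093 times the genome mean in the first kb upstream and 1.54 ± 0.0081 times in the last of 10 equal parts of the interior. Pol2S2P stood at 3.73 ± 0.13 times and 2.40 ± 0.046 times at those places (SD, n = 3 each). Past the gene end Pol2S2P reached 3.11 ± 0.13 times at the second kb and was 2.05 ± 0.021 times 10 kb away, whereas CTCF lay between 1.85 and 1.98 times throughout. The first 5 kb past the end held 0.890 ± 0.0073 times the density of the upstream stretch from 1 to 6 kb in CTCF, against 1.22 ± 0.0063 times in Pol2S2P. The groups did not overlap (exact permutation p = 0.1, the smallest possible), and the single stainings gave 0.837 for CTCF and 1.78 for Pol2S2P. Interiors over the same upstream stretch gave 0.740 ± 0.016 in CTCF and 1.07 ± 0.0068 in Pol2S2P. In the 1980 genes with least H3K4me3, the ratio of downstream to upstream was 1.21 ± 0.014 in CTCF and 1.17 ± 0.020 in Pol2S2P, without overlap (exact permutation p = 0.1), so that CTCF had the higher ratio. The single stainings gave 1.23 for CTCF and 1.45 for Pol2S2P there, with Pol2S2P the higher.

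**Figure D4:**
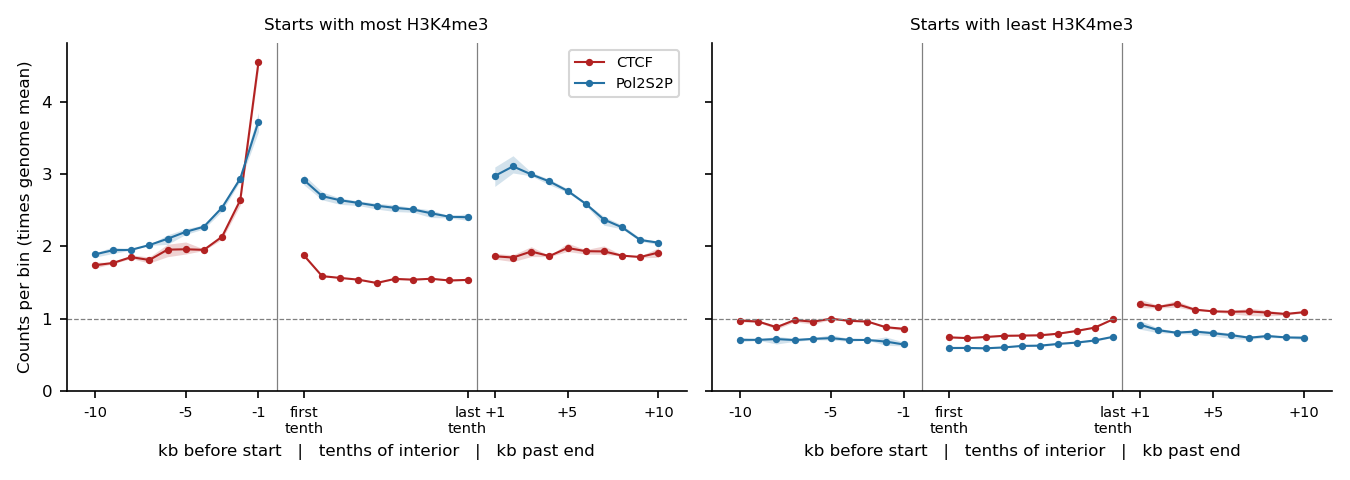
Mean density (times the genome mean) of the 3 CTCF and 3 Pol2S2P libraries along genes of at least 30 kb, in 1 kb steps before the start and past the end and in 10 equal parts of the interior; shading spans the libraries. In genes with most H3K4me3 (left) Pol2S2P exceeds CTCF inside the gene and for several kb past its end, and CTCF exceeds Pol2S2P in the first kb upstream (4.54 against 3.73); in genes with least H3K4me3 (right) CTCF lies above Pol2S2P throughout.

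Among the gene starts that could be tested, the balance of calls was the reverse of that in interiors. Of 8703 starts tested, 3500 (40.2%) passed: 2925 (33.6%) were higher in CTCF and 575 (6.61%) were higher in Pol2S2P, with a median log2 fold change of 0.44. TMM scaling, which moved the median to -0.03, gave 1688 higher in CTCF and 1360 higher in Pol2S2P, and DESeq2 gave 1191 and 899, so the direction of a start near the median depends on the scaling. Only 8703 of 21083 starts had enough counts, and a start low in either target could enter through the other. How far that filter sets the split of calls was not tested. With a window of 2.5 kb, 12904 starts were tested. Of these, 3368 were higher in CTCF and 1524 were higher in Pol2S2P, with a median of 0.16. Where the reference gave no strand, the end with more H3K4me3 stood for the start, a choice that took the same end in 74.1% of genes with a strand, and the window may then be the far end of the gene. The 6830 starts with a strand, a set chosen after the data were seen, gave 2618 calls (38.3%), 2200 (32.2%) higher in CTCF and 418 (6.12%) higher in Pol2S2P.

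The start of Igfbp3 (chr11:7213976-7216975) had 48, 69 and 54 counts in CTCF, against 0, 2 and 3 in Pol2S2P (5.26 ± 0.40, adjusted p = 1.5e-16). Fat4, an atypical cadherin of planar cell polarity, had 43, 52 and 63 counts in CTCF, against 2, 3 and 2 in Pol2S2P (4.70 ± 0.37). Tsc22d3, a glucocorticoid-induced leucine zipper, had 25, 26 and 23 counts in CTCF, against 1, 2 and 0 in Pol2S2P (4.74 ± 0.55). Each had the same order in the single stainings, with Igfbp3 at 18.4 CPM for CTCF and 1.06 CPM for Pol2S2P. On the other side, Pram1, an adaptor of myeloid cells, had 1, 2 and 3 counts in CTCF, against 29, 23 and 28 in Pol2S2P (-3.39 ± 0.47, adjusted p = 1.7e-08). Dpep1, a membrane dipeptidase, had 3, 3 and 4 counts in CTCF, against 33, 22 and 23 in Pol2S2P (-2.64 ± 0.42), and Ccnb1ip1, a meiotic crossover factor, had 0, 13 and 9 counts in CTCF, against 56, 43 and 44 in Pol2S2P (-2.42 ± 0.33). The other genes among the 5 in each direction have no strand in the reference, so their windows may be gene ends: Cdh5 and Bcas1, higher in CTCF at 5.13 and 4.72, and Ywhaz and Actb, higher in Pol2S2P at -2.87 and -2.69. The window of Myod1, also without a strand, had 19, 28 and 22 counts in CTCF, against 4, 2 and 7 in Pol2S2P (2.65 ± 0.41), while the starts of Ctcf, Polr2a, Cdk12 and Myf5 did not pass (0.43, 0.10, 0.26 and 0.26). Nor did the window of Rad21, which has no strand either (-0.44).

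The balance at starts varied between lists, beside 33.6% higher in CTCF and 6.61% higher in Pol2S2P over all starts tested. Of 53 starts of replication-dependent histone genes tested, 1 was higher in CTCF and 21 were higher in Pol2S2P (39.6%, median -0.80), and of 20 starts in the translation list, 1 was higher in CTCF and 8 were higher in Pol2S2P (40.0%, median -0.51). Histone genes are short and clustered, so a start window can cover most of a gene and part of a neighbour, and the 53 starts make up 44 distinct windows, 1 higher in CTCF and 19 higher in Pol2S2P. For the clustered protocadherins, 5 were higher in CTCF and 19 were higher in Pol2S2P of 25 tested (76.0%, median -1.08). None of these genes has a strand in the reference, and the 19 share 1 window, at the common end of the gamma cluster (-1.08, adjusted p = 0.027), so the list holds 7 distinct windows, 5 higher in CTCF and 1 higher in Pol2S2P. Hox starts lay on the other side, with 12 higher in CTCF and 0 higher in Pol2S2P of 16 tested (median 1.20), and 7 higher in CTCF with TMM (median 0.73); 6 of the 16 have a strand.

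The CTCF motif was looked for in promoter sequence, 250 bases before to 50 after the start (RefSeq, GRCm38.p6). The motif's core was taken as CCA, 2 free bases, AG, 2 free bases and GGC, and searched on both strands of 15534 promoters matched to genes by identifier and by a start within 1 kb; 2.32% held it. It was found in 5.68% of the 2025 promoters whose start was higher in CTCF, in 1.42% of the 353 whose start was higher in Pol2S2P, and in 2.31% of the 3904 not called. Of the 210 tested starts with a match, 54.8% were higher in CTCF, beside 31.5% of the 6072 without one, and the median log2 fold changes were 0.99 and 0.42. A match is a description of these letters and not a mapped site. The promoters below are the 4 with a match and the largest CTCF excess, chosen after their values were seen, followed by a start high in CTCF and a start high in Pol2S2P in whose window these letters were not found. Capitals mark the match; each sequence runs 5′ to 3′ on the gene's strand.
Wdr41 (chr13:94976094-94976393, plus strand): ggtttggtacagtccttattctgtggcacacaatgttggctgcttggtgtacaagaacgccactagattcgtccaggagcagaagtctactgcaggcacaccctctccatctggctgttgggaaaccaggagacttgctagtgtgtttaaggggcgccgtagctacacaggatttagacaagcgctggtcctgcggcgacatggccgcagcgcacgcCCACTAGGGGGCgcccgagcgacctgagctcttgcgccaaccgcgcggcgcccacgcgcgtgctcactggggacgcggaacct
Samd9l (chr6:3399522-3399821, minus strand): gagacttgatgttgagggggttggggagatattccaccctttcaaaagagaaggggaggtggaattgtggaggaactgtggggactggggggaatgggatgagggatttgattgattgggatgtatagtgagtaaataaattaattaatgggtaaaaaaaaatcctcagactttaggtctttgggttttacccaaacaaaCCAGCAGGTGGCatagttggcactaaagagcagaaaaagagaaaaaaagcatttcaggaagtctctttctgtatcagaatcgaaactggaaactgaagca
Rab32 (chr10:10558158-10558457, minus strand): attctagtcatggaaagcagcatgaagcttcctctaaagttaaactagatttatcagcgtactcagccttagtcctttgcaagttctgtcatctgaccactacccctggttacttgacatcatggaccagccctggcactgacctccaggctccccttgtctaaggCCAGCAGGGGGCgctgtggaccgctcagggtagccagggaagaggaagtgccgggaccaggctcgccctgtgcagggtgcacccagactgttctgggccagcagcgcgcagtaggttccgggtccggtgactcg
Cldn1 (chr16:26371790-26372089, minus strand): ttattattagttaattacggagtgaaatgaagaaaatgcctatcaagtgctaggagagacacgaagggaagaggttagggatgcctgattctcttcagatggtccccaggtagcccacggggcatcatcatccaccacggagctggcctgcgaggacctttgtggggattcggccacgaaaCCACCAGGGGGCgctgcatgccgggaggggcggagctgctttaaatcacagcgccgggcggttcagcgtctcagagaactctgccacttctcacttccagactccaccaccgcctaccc
Tsc22d3 (chrX:140600473-140600772, minus strand): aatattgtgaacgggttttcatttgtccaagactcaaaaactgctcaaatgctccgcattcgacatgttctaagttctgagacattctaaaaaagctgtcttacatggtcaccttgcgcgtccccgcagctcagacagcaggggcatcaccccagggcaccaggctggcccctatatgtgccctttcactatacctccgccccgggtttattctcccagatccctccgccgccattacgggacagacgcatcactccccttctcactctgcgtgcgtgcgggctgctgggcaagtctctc
Pram1 (chr17:33637806-33638105, plus strand): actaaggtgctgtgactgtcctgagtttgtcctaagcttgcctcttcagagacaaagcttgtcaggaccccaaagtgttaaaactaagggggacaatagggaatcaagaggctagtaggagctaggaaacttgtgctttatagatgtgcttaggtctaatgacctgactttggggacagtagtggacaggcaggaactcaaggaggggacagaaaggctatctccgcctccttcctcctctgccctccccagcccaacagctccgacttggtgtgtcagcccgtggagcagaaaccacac

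The start of Wdr41, a partner of the C9orf72 complex, had 20, 22 and 21 counts in CTCF, against 0, 3 and 3 in Pol2S2P (3.59 ± 0.50, adjusted p = 2.5e-08). Samd9l, an interferon-induced gene, had 23, 30 and 20 counts in CTCF, against 0, 3 and 5 in Pol2S2P (3.41 ± 0.47). Rab32, a small GTPase of organelle traffic, had 22, 36 and 35 counts in CTCF, against 9, 1 and 1 in Pol2S2P (3.31 ± 0.41), and Cldn1, a tight junction protein, had 23, 31 and 20 counts in CTCF, against 4, 2 and 4 in Pol2S2P (3.12 ± 0.42). In all 4 the CTCF libraries lay above every Pol2S2P library.

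The 1 kb bins that could be tested between genes were mostly bins rich in CTCF. Of 22626 bins of 1 kb with enough counts, 5581 were intergenic, and of these 4468 (80.1%) were higher in CTCF and 346 (6.20%) were higher in Pol2S2P, with a median log2 fold change of 2.78. Most of the tested bins, 4589 of 5581, reached the minimum in all CTCF libraries and not in all Pol2S2P libraries, and 444 the other way round, so the filter largely fixes the split of calls, which says little about how often either target is in excess between genes. The same filter was used for the bins inside genes and in the single stainings below. TMM gave 3185 higher in CTCF and 967 higher in Pol2S2P, and DESeq2 2675 and 664. Inside gene interiors, 5100 (62.5%) of 8160 bins tested were higher in CTCF and 1217 (14.9%) were higher in Pol2S2P. The single stainings gave 10259 calls (70.1%) among 14631 intergenic bins, 8407 (57.5%) higher in CTCF and 1852 (12.7%) higher in Pol2S2P. Only 5411 intergenic bins were tested in both the dual and the single stainings. Of these, 4376 were higher in CTCF in the dual stainings, 4009 in the single stainings and 3914 in both, or 89.4% and 97.6% of those calls. For Pol2S2P the numbers were 303, 376 and 263, or 86.8% and 69.9%. Bins tested in both had to pass the dual filter, mostly through CTCF, so agreement toward CTCF is largely set by it.

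The intergenic bins with the largest fold change toward CTCF had no count in the Pol2S2P libraries compared. A ranking by fold change favours such bins, so their lack of Pol2S2P counts is partly set by it. On average the 4468 intergenic bins higher in CTCF stood at 2.45 times the genome mean in the Pol2S2P dual libraries of 100 cells. The bin at chr16:3122991-3123990, 33.4 kb from the nearest annotated gene, had 31, 47 and 36 counts in CTCF, against 0, 0 and 0 in Pol2S2P. With 3 counts over the group as the floor, it was at least 45.9-fold higher in CTCF, and the single CTCF libraries held 112 counts there against 2 in the single Pol2S2P libraries. A bin 6.70 kb from Tbx2, a T-box factor of limb and heart development (chr11:85848651-85849650), had 30, 37 and 30 counts in CTCF, against 0 in each Pol2S2P library, at least 39.0-fold higher. The bins at chr3:70103716-70104715, chr15:88555641-88556640 and chr15:52160791-52161790 were at least 38.6-, 29.8- and 27.4-fold higher on the same floor. Inside genes, the bins with the largest fold change by the same rule lay in Phyhipl, Gpa33, Rims2, Kcnma1 and Ido2. They had 116, 94, 86, 80 and 74 CTCF counts in all, against 0 Pol2S2P counts, and were at least 46.7-, 37.8-, 34.6-, 32.2- and 29.8-fold higher. Of these hosts, Rims2 (a protein of the synaptic active zone) and Kcnma1 (a calcium-gated potassium channel) are genes of excitable cells.

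The intergenic bins higher in Pol2S2P were described by the genes around them. Of the 346 bins higher in Pol2S2P, 41.9% lay 2 to 12 kb downstream of a gene with a known strand and not upstream of one, 4.05% lay only upstream, and 17.6% lay over 10 kb from every gene. Over the 5581 bins tested these shares were 19.3%, 16.1% and 45.2%. Of the 4468 bins higher in CTCF, 18.0% lay downstream and 16.4% upstream, and over all 1244001 intergenic bins, tested or not, 5.60% and 6.07% did. The bin at chr16:44166821-44167820, 3.36 kb downstream of the acetyltransferase gene Naa50, had 0, 1 and 0 counts in CTCF, against 19, 11 and 13 in Pol2S2P, a CTCF level 0.0281 times that of Pol2S2P (95% exact interval 0.000695 to 0.165). A bin 9.04 kb downstream of the phosphatase gene Ppp2ca (chr11:52131791-52132790) had 1, 0 and 1 counts in CTCF, against 25, 22 and 25 in Pol2S2P. Another, 3.71 kb downstream of the sorting nexin gene Snx5 (chr2:144245416-144246415), had 1, 0 and 0 counts in CTCF, against 16, 11 and 13 in Pol2S2P. The bin at chr19:5819981-5820980, 3.73 kb from the long noncoding RNA gene Neat1, had 0 counts in each CTCF library, against 13, 15 and 11 in Pol2S2P, at least 10.8-fold higher in Pol2S2P. The remaining bin of the 5, at chr6:9889961-9890960 and 640 kb from the nearest coding gene Nxph1, had 0, 2 and 0 counts in CTCF, against 23, 28 and 22 in Pol2S2P. It also held 82 counts in the H3K27ac libraries of the same dual staining and 49 in the Pol2S2P dual libraries of 100 cells, but 0 in the single Pol2S2P libraries.

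In libraries outside the comparison, the called bins had different widths. At the 4468 bins higher in CTCF, the CTCF dual libraries of 10000 cells stood at 17.6 ± 0.318 times the genome mean (SD, n = 3), at 6.40 and 6.53 times 1 kb to either side and at 2.13 and 2.21 times 10 kb away. The single Pol2S2P libraries stood at 4.09 times there. At the 346 bins higher in Pol2S2P, the CTCF dual libraries of 10000 cells stood at 4.53 times, and the single Pol2S2P libraries stood at 20.2 times, at 18.5 and 19.6 times 1 kb to either side and still at 8.36 and 10.1 times 10 kb away. H3K4me3 stood at 6.64 times at the bins higher in CTCF and at 10.9 times at those higher in Pol2S2P.

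**Figure D5:**
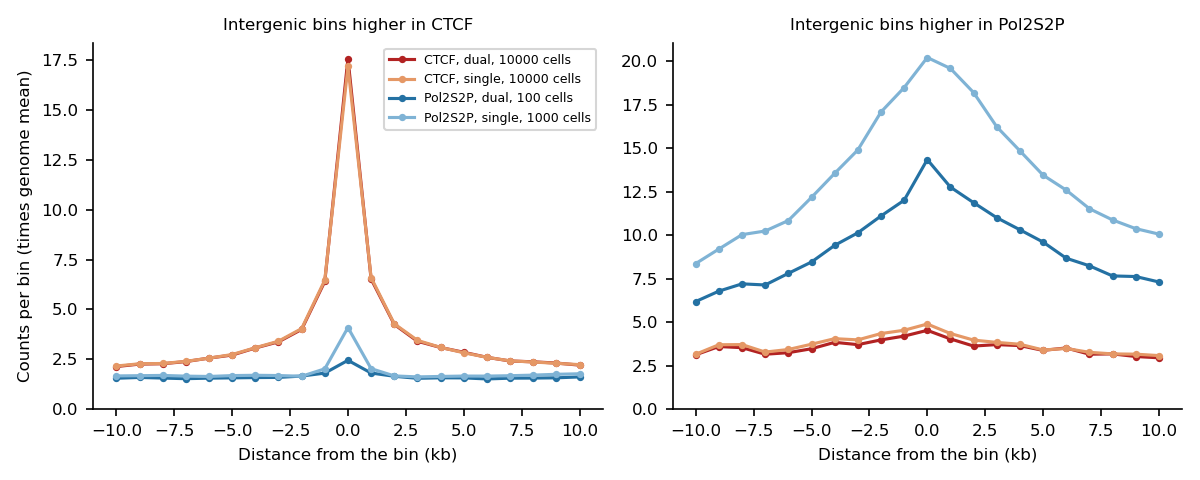
Mean density (times the genome mean) of libraries outside the comparison around the 4468 intergenic bins higher in CTCF (left) and the 346 higher in Pol2S2P (right), by distance from the bin in kb. The CTCF libraries form a narrow peak of 17.2 to 17.6 times on the left; the single Pol2S2P libraries form a broad mound on the right, 20.2 times at the centre.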

How the data were processed

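Multi-target ChIL libraries of C2C12 cells were analysed as raw counts per 1 kb bin, the unit the authors deposited; per the submitters' processing notes, reads were handled with bcl2fastq, HISAT2 2.1.0 and deepTools 3.3.1 on GRCm38. The table holds 32 library columns, of which 4 match no sample of the labels and were not used; 6 samples were not analysed here. Of 2728634 bins, 2631630 on autosomes and X were kept, leaving out 9 bins over 50 times the mean. Counts were summed over gene interiors (over 2 kb inside both ends of protein-coding genes of at least 5 kb), gene starts (within 1 kb) and intergenic bins (over 2 kb outside every gene), with gene positions from the RefSeq table of GRCm38.p6. Strand came from the RefSeq promoter table for 17274 genes. For 3809 others the end with more H3K4me3 was used, which took the same end in 74.1% of 15072 genes with a strand and in 94.6% of the 7277 with at least 50 counts. For that reason profiles, H3K4me3 classes and promoters use genes with a strand alone.

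Tests were edgeR 4.0.16 quasi-likelihood fits (R 4.3.3) after filterByExpr. Library size was the total count without further scaling, and p-values were Benjamini-Hochberg adjusted over all features tested, with a threshold of 0.05. Log2 fold changes are CTCF over Pol2S2P, with the standard error. Shares were compared by exact two-sided permutation tests (scipy 1.17.1). Alternatives were TMM, DESeq2 1.42.0, other filters, margins and windows, a replicate block and each library left out. The fits were tested on simulated data. Same-numbered libraries did not deviate together (correlations of 0.0113, 0.00152 and 0.0119), so the numbers do not pair them. Intervals and floors (3 counts over the group) cover counting error only, as the deposited counts are not stated to use molecular identifiers.

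Members and lists were chosen with earlier results of these data known. Named were the 10 interiors and 5 starts or bins of largest fold change each way that passed the threshold without overlap (interiors and starts also without shared bins and with at least 20 counts in each library of the higher group, bins with at least 10), up to 4 members of each list, all members of lists with at most 10 tested, and Ctcf, Rad21, Polr2a, Cdk12, Myod1, Myf5, Myog, Igf2 and H19, the last of which is not in the set of coding genes and has no value here. A few genes that this rule names are not reported here.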

Additional observations from a re-analysis of the deposited data

Results flagged for a closer look

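The share of counts at gene starts differed in direction between kinds of staining: CTCF minus Pol2S2P was 1.80 percentage points in the dual stainings and -1.45 in the single stainings, with every CTCF library above every Pol2S2P library in the dual stainings and below in the single ones. From 2 to 12 kb downstream of genes the difference was 0.281 points in the dual stainings and -0.295 in the single stainings, in the same manner. For both regions, genes without a strand were oriented by the end with more H3K4me3. Neither contrast between kinds of staining was tested, and cell number differs as well: 10000 cells for single CTCF, against 1000 for single Pol2S2P.

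The interior of Nkx2-5, a transcription factor of the heart, had 16, 11 and 12 counts in CTCF, against 9, 9 and 3 in Pol2S2P, in the dual stainings (log2 fold change 1.17, edgeR adjusted p = 0.015), and -1.03 in the single stainings (adjusted p = 0.015). The difference between kinds of staining was 2.18 on the log2 scale (interaction term, adjusted p = 0.0083). It spans 2 bins, 1 of which held 87.2% of the CTCF counts. Of the genes named after their values were seen, Shank2 had -0.15 in the dual and 0.24 in the single stainings (adjusted p = 0.0252 and 0.0008), a difference of -0.39 (adjusted p = 0.000995), and the vomeronasal receptor gene Vmn2r79 had -0.79 and 1.05 (adjusted p = 0.028 and 0.021), a difference of -1.85 (adjusted p = 0.0143). Among 13801 interiors tested for such a difference, 1480 passed, and 42 of them were called in opposite directions.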

How the results depend on the processing

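With the replicate block the counts of calls were 8170 (2965 higher in CTCF, 5205 higher in Pol2S2P) for interiors, 3315 for starts, 4749 for intergenic bins, and 9614 and 9795 for interiors and bins of the single stainings; no count moved by over 1.5 times. DESeq2 gave 2090 starts (1191 higher in CTCF, 899 higher in Pol2S2P), 3303 interiors and 3542 single-staining interiors higher in Pol2S2P, 2675 intergenic bins higher in CTCF and 664 higher in Pol2S2P, and 938 single-staining bins higher in Pol2S2P. TMM gave 1688 starts higher in CTCF and 1360 higher in Pol2S2P, and 967 intergenic bins higher in Pol2S2P. Starts higher in Pol2S2P numbered 1524 with a 2.5 kb window and 1985 with both ends. A filter minimum of 5 gave 10396 intergenic bins (8881 higher in CTCF, 1515 higher in Pol2S2P), and bins over 10 kb from genes 2179 (2118 and 61); fewer or more bins are tested there. With 1 library left out, interiors ranged from 7695 to 8065, starts from 3183 to 3443, and intergenic bins from 5785 to 7366 (5251 to 6944 higher in CTCF, 392 to 637 higher in Pol2S2P), since more bins pass the filter. The extremes were 7366 and 6944 without Pol2S2P replicate 2, and 637, 534 and 592 higher in Pol2S2P without CTCF replicates 1, 2 and 3. Single-staining interiors ranged from 8325 to 9595, and bins from 5604 to 13134 (4571 to 11324 higher in CTCF, 1033 to 1810 higher in Pol2S2P), at 5944 and 5604 without CTCF replicates 1 and 2 and, higher in Pol2S2P, 1205 without Pol2S2P replicate 1. With 1 library left out, share differences ranged from -7.59 to -7.32 points inside genes and from 4.83 to 5.16 between them. Wider margins, which leave fewer bins, gave -6.28 points over 5 kb inside genes and 3.24 points over 10 kb outside them. Of 2252 values for 172 named genes and bins, 2158 kept direction and call, 80 lost the call and 11 gained it; Klf10 reversed to -0.64 without the bins highest in single CTCF, and Shank2 to 0.08 (0.0768 with TMM, 0.0825 with DESeq2). Causes were not tested. Depth limits single bins, as the mean bin holds about 1 count.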

Other observations

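Chromosome X carried 2.91% ± 0.081 of CTCF counts, against 2.62% ± 0.010 of Pol2S2P counts (SD, n = 3 each), without overlap, a log2 ratio of 0.15; the single stainings gave 2.75% for CTCF and 2.29% for Pol2S2P. Annotated genes cover 32.6% of its bins. Chromosome 16 lay on the other side, with 4.13% ± 0.064 of CTCF counts and 4.49% ± 0.014 of Pol2S2P counts.

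Interiors called higher in CTCF belonged to longer genes than those called higher in Pol2S2P, with median lengths of 51.8 kb and 36.3 kb. Interiors not called belonged to shorter genes than either, with a median of 29.4 kb. In interiors higher in CTCF, that target stood at a median of 1.73 times the genome mean and Pol2S2P at 0.915 times, and H3K27ac, the mark of active promoters and enhancers, at 0.850 times. Interiors called higher in Pol2S2P had 1.32 times for CTCF, 2.59 times for Pol2S2P and 1.72 times for H3K27ac, which was stained in the same cells as Pol2S2P.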
